A study of Mus musculus with 3 samples.

Results

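Binding sites of CEBPG and ATF4, transcription factors of the basic leucine zipper (bZIP) class, were examined around 10 genes for inflammatory cytokines, chemokines and a cytokine receptor: Il6, Lif, Csf1, Csf3, Cxcl1, Cxcl2, Cxcl5, Ccl2, Ccl7 and Il1rl1. They are 10 of 21887 protein-coding genes of the nuclear chromosomes. The cells were primary fibroblasts from wild-type C57BL/6 mouse embryos, isolated at embryonic day 13.5. They were plated for 24 hours and then deprived of amino acids (AAD medium) for 3 hours. Chromatin was immunoprecipitated with an antiserum to the C-terminal part of CEBPG, an ATF4 antibody or a GFP antibody, 1 library each, and every group had the same strain, medium and time. The data were the 2 deposited peak lists, 25419 CEBPG peaks and 2642 ATF4 peaks. The GFP library was not analysed here. There was no library from cells with a full amino acid supply in the groups described here, so no value says what deprivation changed.

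A peak was assigned to a gene when it overlapped the gene's RefSeq span or the 20 kb on either side, and a peak within reach of neighbouring genes was counted once. By this rule 8 of the 10 genes had a CEBPG peak, through 13 distinct peaks, and 0 had an ATF4 peak. Across the 21887 protein-coding genes, the same rule gave a CEBPG peak to 43.7% and an ATF4 peak to 7.44%. The CEBPG peaks were mostly weak, with scores of 41.04 to 237.88 (median 49.33). The highest lay beside Cxcl5 and the next between Cxcl1 and Cxcl2. CEBPG peaks of 77.33 and 41.04 lay directly before the start of Il6. Lif and Csf3 had none in the window. Each list came from 1 library, so no value carries an error between cultures and no test was made.

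As background, fibroblasts are a source of the signals that call leukocytes into damaged tissue. Interleukin-6 and leukaemia inhibitory factor (LIF) are related ligands that act through the gp130 receptor chain, CSF1 and CSF3 drive the growth of macrophages and neutrophils, CXC chemokines with an ELR motif attract neutrophils, and CCL2 and CCL7 attract monocytes. Many of these genes are switched on by NF-kB together with C/EBP proteins, and C/EBP-beta was first named NF-IL6 for its site in the human IL6 promoter. CEBPG belongs to the C/EBP family and can pair with its relatives and with ATF4. ATF4 is translated when amino acids run short, and its dimers with C/EBP proteins bind a composite element that joins C/EBP and ATF sequences.

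Of the 10 genes, 6 were matched in the RefSeq promoter table (GRCm38.p6), with 7 promoters, since Il1rl1 had 2 starts. Csf3, Cxcl5, Ccl2 and Ccl7 had no entry, so their promoters were not searched. Both listed starts of Il1rl1 lie inside its RefSeq span, and the lower-coordinate end of that span was not searched. Promoters of 4 of these genes are shown, each as the 250 bases before the start, read 5′ to 3′ on the gene's strand. The promoter of Il6 is shown because 2 CEBPG peaks lay on it. Those of Cxcl1 and Cxcl2 are shown as examples that carry NF-kB letters without a CEBPG peak. The promoter of Csf1 does so too and is not printed. The first one of Il1rl1 is shown because it carries C/EBP letters without a peak. Capitals mark matches to the C/EBP pattern TTGCNNAA in Il6 and Il1rl1, and matches to the NF-kB pattern in Il6, Cxcl1 and Cxcl2, on either strand. The NF-kB pattern searched was GGG and TTCC with any 3 bases between them.
Il6 promoter (chr5:30012864-30013113, plus strand): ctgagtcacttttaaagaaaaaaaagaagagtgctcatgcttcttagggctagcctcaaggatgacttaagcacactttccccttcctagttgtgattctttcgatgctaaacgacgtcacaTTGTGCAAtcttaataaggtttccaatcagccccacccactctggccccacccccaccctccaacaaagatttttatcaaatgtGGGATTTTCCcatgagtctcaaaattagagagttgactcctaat
Cxcl1 promoter (chr5:90890995-90891244, plus strand): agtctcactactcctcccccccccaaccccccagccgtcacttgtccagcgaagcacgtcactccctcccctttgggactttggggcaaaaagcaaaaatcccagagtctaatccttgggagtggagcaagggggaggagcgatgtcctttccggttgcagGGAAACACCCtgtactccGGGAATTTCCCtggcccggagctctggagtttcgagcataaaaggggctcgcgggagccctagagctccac
Cxcl2 promoter (chr5:90903649-90903898, plus strand): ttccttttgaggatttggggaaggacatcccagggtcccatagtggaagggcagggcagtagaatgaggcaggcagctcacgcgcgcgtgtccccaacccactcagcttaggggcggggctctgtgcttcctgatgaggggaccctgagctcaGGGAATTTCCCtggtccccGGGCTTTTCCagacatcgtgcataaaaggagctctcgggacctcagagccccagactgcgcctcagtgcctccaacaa
Il1rl1 promoter, first start (chr1:40429320-40429569, plus strand): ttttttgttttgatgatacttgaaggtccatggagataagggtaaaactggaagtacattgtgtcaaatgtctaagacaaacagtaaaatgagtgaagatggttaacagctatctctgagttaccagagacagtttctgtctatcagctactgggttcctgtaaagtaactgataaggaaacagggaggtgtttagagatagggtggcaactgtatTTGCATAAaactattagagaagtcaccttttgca

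Il6, which encodes the cytokine interleukin-6, had 3 CEBPG peaks and was the single gene of the 10 with CEBPG at its promoter. The gene spans chromosome 5 from 30013114 to 30019975 on the plus strand. The strongest peak (30012770 to 30012929, score 77.33) covered the bases from 344 to 185 before the start. The second (30012945 to 30013087, score 41.04) covered the bases from 169 to 27 before the start. Only 15 bp separated these 2 peaks, and whether they come from 1 bound site was not tested. The third (30018548 to 30018688, score 43.57) lay inside the gene, 5.5 kb after the start. Within the CEBPG list the first of these stood above 85.3% of all peaks, the second above 10.3% and the third above 30.7%, so the peak next to the start was close to the lower limit of the list. All 3 also lay inside the span of A230098N10Rik, a long non-coding RNA gene (30004435 to 30030987) that runs across Il6.

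A CEBPG peak on a promoter was uncommon. A window from 250 bases before to 50 bases after a start held a CEBPG peak in 1.25% of 32817 promoters and an ATF4 peak in 0.146%. It held 2 or more CEBPG peaks in 0.0579%, which was 19 promoters including that of Il6. Il6 is among these only with its peaks 15 bp apart counted separately. Among the 410 promoters with a CEBPG peak, the median of the top score was 96.24, and 42.4% had a top score below the 77.33 of Il6. Of the 7 promoters of the 6 matched genes, that of Il6 alone carried a peak.

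The second Il6 peak held the C/EBP match at bases 128 to 121 before the start, which reads TTGCACAA on the opposite strand. It also held the NF-kB match GGGATTTTCC at bases 44 to 35 and the short form TGACG of the cyclic AMP response element (CRE), on the opposite strand, at bases 135 to 131. The stronger first peak had 66 of its 160 bases in the printed stretch, and these held the AP-1 match TGAGTCA at bases 249 to 243. A match is a description of letters and does not show that a protein bound them.

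The same letters were looked for in all 32817 promoters (250 bases before the start, both strands). The C/EBP pattern TTGCNNAA was in 9.57% of them and in 22.9% of the 410 promoters whose window held a CEBPG peak. The C/EBP-ATF composite element TGATGNAAN was in 3.44% of all promoters and in 19% of those with a CEBPG peak. None of the 7 promoters of the cytokine and chemokine genes held the composite element. The C/EBP pattern TTGCNNAA was in 2, those of Il6 and of the first Il1rl1 start, where TTGCATAA lay at bases 34 to 27. NF-kB letters were in 4.65% of all promoters and in those of Il6, Csf1, Cxcl1 and Cxcl2, which are 4 of the 7. Of the other motifs, the short CRE form TGACG was in 17.7% of all promoters and in those of Il6, Cxcl1 and the second Il1rl1 start, while AP-1 letters (TGANTCA) were in 6.75% and in those of Il6 and Lif. The full CRE TGACGTCA (1.55% of all promoters), the STAT site TTCCNGGAA (0.914%) and the TATA box letters TATAAA (12.4%) were in none of the 7. Among the 410 promoters with a CEBPG peak, TGACG was in 37.8%, AP-1 letters in 10.5% and TATAAA in 10.2%. NF-kB letters were in 5.85% of these 410, the full CRE in 1.95% and the STAT site in 0.488%. The TGACG letters also begin the full CRE, and the NF-kB pattern overlaps itself on opposite strands in Cxcl1 and Cxcl2.

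**Figure D1:**
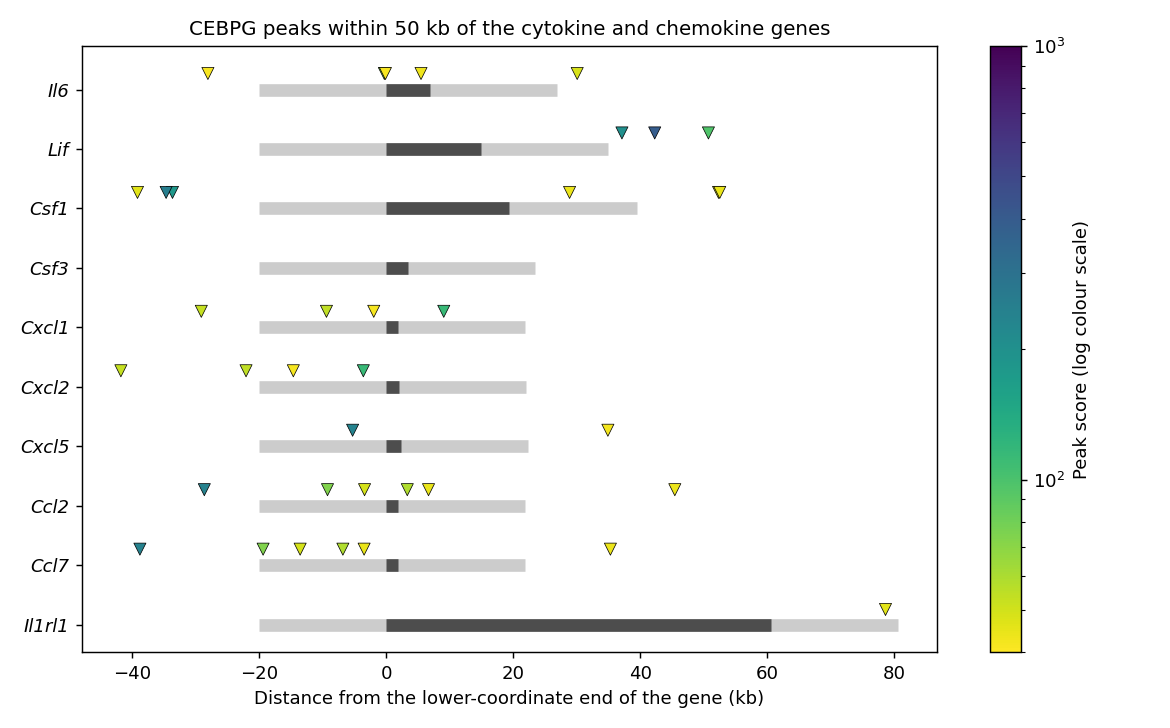
CEBPG peaks around each gene. The horizontal axis is the distance in kb from the lower-coordinate end of the gene, dark bars are gene spans, grey bars the 20 kb on either side, and triangles are CEBPG peaks within 50 kb coloured by score on a log scale. Peaks of Cxcl1 and Cxcl2 and of Ccl2 and Ccl7 appear in the rows of both genes. Lif has 3 peaks just beyond its grey bar and Csf3 has none.

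Lif, the gene for the IL-6 family cytokine LIF, had no peak in the window (chromosome 11, 4257568 to 4272514, plus strand). The nearest CEBPG peak lay 22 kb beyond its higher-coordinate end (4294533 to 4294843) and had a score of 202.48. Further CEBPG peaks of 392.52 and 96.72 lay 27.1 kb and 35.7 kb from the gene, and Lif was the nearest protein-coding gene to all 3. The strongest of them (4299592 to 4300100) ranked 860th of the 25419 CEBPG peaks, above every peak inside the 20 kb windows. These values lie just outside the limit. Just inside it, the peak farthest from its nearest gene of the set was that of Il1rl1, at 17.9 kb with a score of 46.31.

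Csf1, encoding macrophage colony-stimulating factor, had 1 weak CEBPG peak. The gene lies on the minus strand of chromosome 3 (107741048 to 107760469). Its peak (107769892 to 107769964, score 44.07) lay 9.42 kb before the start and inside the long non-coding RNA gene Gm40121. With a width of 73 bp it was the narrowest of the 13. Stronger CEBPG peaks of 178.61 and 254.38 lay outside the window, 33.4 kb and 34.4 kb beyond the other end of Csf1 and nearer to Ahcyl1, an IP3-receptor-binding protein gene.

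Csf3, encoding granulocyte colony-stimulating factor, stood apart from the other genes. Its span on chromosome 11 (98700183 to 98703631) had no CEBPG peak within 100 kb. The nearest lay 102 kb away, with a score of 51.84.

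The neutrophil-attracting chemokine genes held the 2 strongest peaks of the set. Cxcl5 (chromosome 5, 90759298 to 90761625) had 1 CEBPG peak, at 90753818 to 90754255, with a score of 237.88. It lay 5.04 kb below the lower-coordinate end of the gene, was the widest of the 13 at 438 bp and stood above 94.4% of the CEBPG list.

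Cxcl1 and Cxcl2, a pair of closely related neutrophil chemokine genes lying side by side on the plus strand of chromosome 5, had 3 CEBPG peaks between them. The strongest (90900160 to 90900492, score 114.05) lay in the stretch between the genes, after the end of Cxcl1 (90891245 to 90893121) and 3.57 kb before the start of Cxcl2 (90903899 to 90905938), measured from the centre of the peak. A weaker peak (90889247 to 90889374, score 41.96) lay 1.93 kb before the start of Cxcl1 and was also within reach of Cxcl2. The third (90881691 to 90882049, score 54.12) lay 9.38 kb before the start of Cxcl1 and reached that gene alone. None of them touched the NF-kB letters of the printed promoters, which lie within 100 bases of the starts. The first and last of the 3 spanned 18.8 kb, and the peak of Cxcl5 lay 127 kb away from them.

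Ccl2 and Ccl7, the neighbouring monocyte chemokine genes of chromosome 11 (82035577 to 82037452 and 82045712 to 82047525), shared 4 CEBPG peaks within 16.1 kb. In order along the chromosome the scores were 73.18, 49.33, 58.62 and 44.33. The first 2 lay 9.13 kb and 3.31 kb below Ccl2, and the other 2 lay in the stretch between the genes, 1.42 kb above Ccl2 and 3.35 kb below Ccl7. None overlapped a gene span. A peak of 241.94, higher than any peak within the 20 kb windows, lay 28.4 kb below Ccl2 and so outside them. Having 3 or more CEBPG peaks in the window was true of 8.81% of all protein-coding genes, and 4 or more of 4.83%. Among genes with spans of 20 kb or less, 1.97% had 3 or more. Among the 10 genes, 4 had 3 or more (Il6, Cxcl1, Ccl2 and Ccl7) and 2 had 4 (Ccl2 and Ccl7, through the same peaks). Il6 reached 3 only with its peaks 15 bp apart counted separately.

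Il1rl1 encodes ST2, the receptor for interleukin-33, and is the one receptor gene of the set (chromosome 1, 40404864 to 40465418). Its single CEBPG peak (40483362 to 40483490, score 46.31) lay 17.9 kb beyond the higher-coordinate end and inside the next gene, Il18r1, a subunit of the interleukin-18 receptor. It stood above 46.7% of the CEBPG list.

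**Figure D2:**
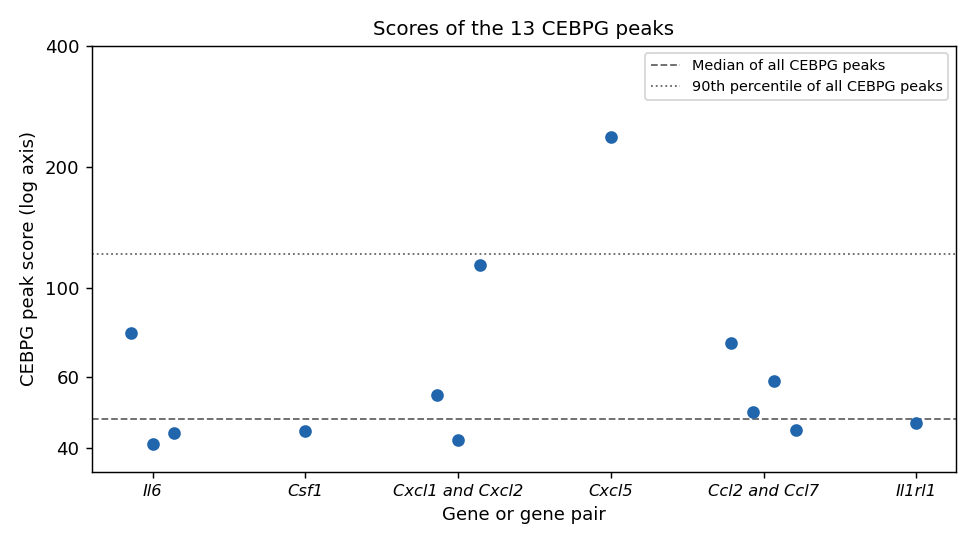
Scores of the 13 CEBPG peaks by gene or gene pair, on a log axis, each point 1 peak ordered by position within a gene. The dashed line is the median of all 25419 CEBPG peaks (47.24) and the dotted line their 90th percentile. The Cxcl5 peak is the only one above the dotted line.

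Most of the 13 peaks were weak and narrow, as were most peaks of the whole CEBPG list. Scores under 50 were found for 7 of 13 (53.8%), against 60.2% of the list, and scores of 100 or more for 2 of 13 (15.4%), against 11.7% of the list. The median score was 49.33 for the 13 and 47.24 for the list, whose highest score was 3205.83. Widths ran from 73 to 438 bp with a median of 149 bp, against 131 bp for the list. Of the 13, 11 lay outside all protein-coding spans and 6 were within reach of 2 of the genes.

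Counted by gene, the share with a CEBPG peak lay above the background in some windows and not in others. A peak overlapped the gene span itself at 1 gene (Il6), against 23.4% of all protein-coding genes. With 5 kb on either side 5 of the 10 genes were reached, against 29.9%, with 50 kb 9, against 62.5%, and with 100 kb 9, against 79.3%. ATF4 peaks were within 5 kb of 0 of the 10 genes, against 4.94% of all genes, within 50 kb of 0, against 12%, and within 100 kb of 1 (Csf1), against 19.3%. A CEBPG peak of 50 or more was near 6 of the 10 genes, against 24.9% of all protein-coding genes, and 1 of 100 or more near 3 (Cxcl1, Cxcl2 and Cxcl5), against 10.9%. The median of the top score was 75.3 over the 8 genes with a peak and 52.76 over all genes with one. These genes are short, and a longer gene has a longer window. Of the 9 genes with a span of 20 kb or less, 7 had a CEBPG peak, against 30.7% of the 11849 protein-coding genes of that length, a comparison added after seeing the data. Neighbours share peaks, so the 10 genes are not independent. With overlapping windows joined, they formed 8 loci, of which 6 (75%) had a CEBPG peak. The windows of all protein-coding genes joined into 6060 loci, and 63.4% of these had a CEBPG peak. The 8 loci were shorter, with a mean length of 56.8 kb, against 237 kb for the 6060. They covered 454 kb with 28.6 CEBPG peaks per Mb, against 9.96 per Mb in the joined windows of all protein-coding genes. No test stands behind these differences.

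No ATF4 peak came close to any of the 10 genes. The nearest lay 84.6 kb from Csf1, on chromosome 3 at 107656235 to 107656493, with a score of 49.13. It overlapped a strong CEBPG peak (score 1011.55) and was nearer to Ahcyl1, at 6.63 kb. For Il1rl1 the nearest ATF4 peak was 150 kb away (score 43.21), inside Il1r1, the interleukin-1 receptor gene. The distances were 327 kb for Cxcl5, 370 kb for Cxcl2, 383 kb for Cxcl1 and 564 kb for Csf3. They were 1067 kb for Lif, 1317 kb for Il6, 1324 kb for Ccl2 and 1334 kb for Ccl7. The median distance to an ATF4 peak was 473 kb over the 10 genes and 371 kb over all protein-coding genes, while that to a CEBPG peak was 4.22 kb and 28.4 kb. None of the 13 CEBPG peaks overlapped an ATF4 peak, and the smallest gap between them was 113 kb.

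**Figure D3:**
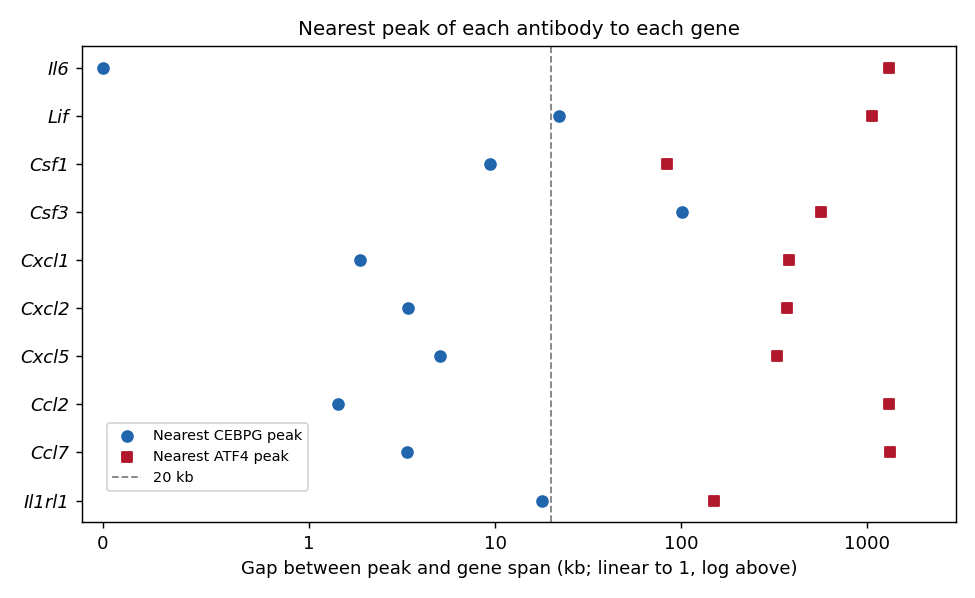
Gap in kb between each gene's span and the nearest CEBPG peak (circles) or ATF4 peak (squares), on an axis that is linear up to 1 kb and logarithmic above. The dashed line marks 20 kb. Every ATF4 peak lies at 84.6 kb or farther, and CEBPG peaks lie inside 20 kb for all genes but Lif and Csf3.

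The lack of ATF4 overlap has to be read beside the scores. Among all 21363 CEBPG peaks with scores in the range of these 13, 72 (0.337%) overlapped an ATF4 peak. The share was 0.118% at scores of 40 to 50, 0.365% at 50 to 100 and 1.94% from 100 to 237.88. For the whole CEBPG list, which holds many stronger peaks, it was 1.58%. Peaks as weak as these thus rarely lay on an ATF4 peak anywhere in the genome, and 0 of 13 does not set them apart from other peaks of their score. For the genes, 0 of 10 stands beside a background of 7.44%, or 4.59% among genes with spans of 20 kb or less. The depth of the libraries is unknown, so a weaker ATF4 signal below the threshold of the list cannot be seen.

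Related genes were counted by the same rule. Of 22 other inflammatory secreted factors, 12 had a CEBPG peak and 3 an ATF4 peak. The CEBPG scores were highest at Ccl20, a chemokine for CCR6-bearing lymphocytes and dendritic cells (1052.67), Il1a, encoding interleukin-1 alpha (457.05), and Cxcl16, a chemokine that is made as a membrane protein (110.85). The Ccl20 peak lay 0.72 kb outside the gene, was 1 of 5 CEBPG peaks in its window and overlapped no ATF4 peak. The ATF4 peaks of this list, near Il33 (49.18), Cxcl10 (43.33) and Il15 (43.14), lay outside CEBPG peaks. Of the 22 CEBPG peaks of this list, 2 were also peaks of Ccl2 and Ccl7.

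Of 15 genes for receptors of these ligands, their partners and related interleukin-1 family receptors, 8 had a CEBPG peak and 1 an ATF4 peak. Il1r1, Il1r2 and Il18r1 are of the last kind and are not receptors for these ligands. Il1r1 had the highest CEBPG score (449.16) and also the ATF4 peak (43.21), which did not overlap a CEBPG peak. Osmr, the oncostatin M receptor (370.63), and Il1rap, the shared co-receptor of the interleukin-1 family (133.01), had CEBPG peaks inside their spans. Il18r1 was counted only through the peak near Il1rl1.

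Of 19 genes for NF-kB and STAT3 signalling and its feedback, 11 had a CEBPG peak and 0 an ATF4 peak. The highest scores were at Myd88, an adaptor of Toll-like and interleukin-1 receptors (207.55), Tnfaip3, the NF-kB inhibitor A20 (178.01), and Nfkb1, an NF-kB subunit (91.19), each outside the gene span. Of 12 genes for cytokines mainly of lymphocytes, 2 had a CEBPG peak, Il2 (124.05) and Il10 (43.18). Il10 also had the 1 ATF4 peak (57.14). The shares with a CEBPG peak were thus 80% for the 10 genes, 54.5% for other secreted factors, 53.3% for receptors, 57.9% for signalling genes and 16.7% for lymphocyte cytokines, beside 43.7% of all protein-coding genes. For ATF4 the shares were 13.6% for other secreted factors, 6.67% for receptors and 8.33% for lymphocyte cytokines. They were 0 for the 10 genes and the signalling genes, beside 7.44% of all protein-coding genes. Neighbouring genes that share peaks were each counted in these shares, and gene length was not matched. Differences between these lists were not tested.

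**Figure D4:**
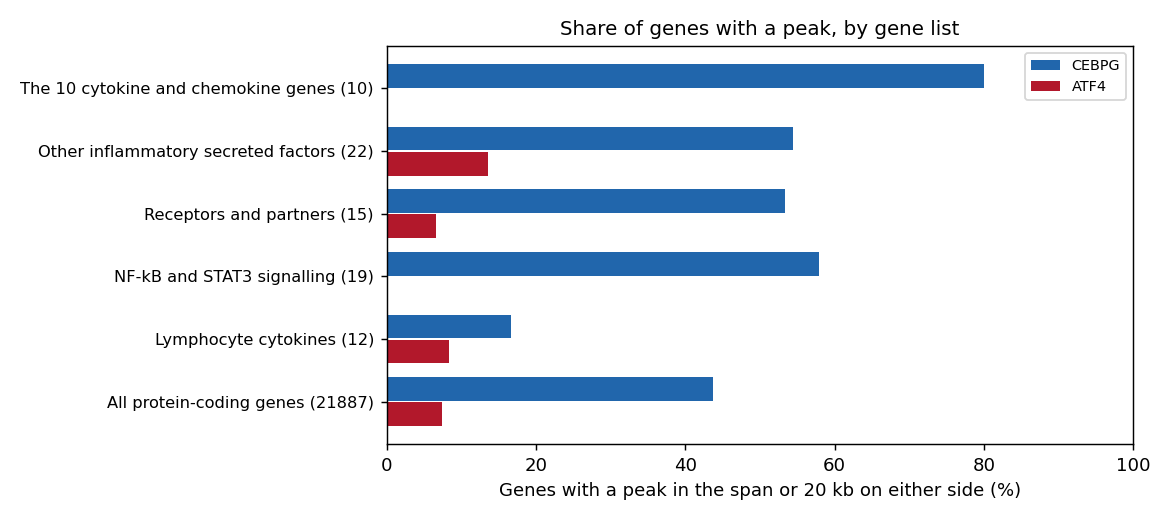
Percentage of genes with a CEBPG or ATF4 peak in the span or the 20 kb on either side, for the 10 genes, 4 lists of related genes and all protein-coding genes (number of genes in brackets). For CEBPG the 10 genes reach 80% and the lymphocyte cytokines 16.7%, and for ATF4 the 10 genes are at 0. Neighbouring genes that share peaks are each counted, and gene length is not matched.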

How the data were processed

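Per the labels' protocols, single-end reads of 36 bp were sequenced with 1 library per lane. The build mm10 and the tools HOMER, MACS 1.4.2, BWA and Trimmomatic are listed without settings, per the submitters' processing notes. Any use of the GFP library in peak calling is not stated there. The score is the authors' value for each peak, deposited at the end of the peak name. It begins at 40 and its scale is stated nowhere, so it served only for ranks and thresholds inside each list. The deposited files hold no read counts, so depth is unknown.

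Starts were read as 0-based and printed 1-based. Gene spans came from RefSeq (GRCm38.p6), and starts, strands and sequences from its promoter table. Counting used Python 3.11.15 with pandas 2.3.3 and was tested on simulated data. Shared peaks overlapped by at least 1 bp. Named genes were the 10 genes, genes nearest their peaks, and up to 3 top-scoring genes per antibody in each list. The marker lists served as further description. Of 7 fibroblast markers 5 had a CEBPG peak, led by Col3a1 (253.83), Thy1 (164.13) and Col1a1 (117.85), and Col1a2 had the 1 ATF4 peak (50.52). Of 6 macrophage markers 4 had a CEBPG peak, led by Cd68 (79.02), Lyz2 (74.73) and Ptprc (48.72), and Ptprc had the 1 ATF4 peak (46.71). The same rule gave a CEBPG peak to 43.7% of all protein-coding genes and an ATF4 peak to 7.44%. Peak lists hold no expression, so the markers do not check the cell type. The genes, lists and motifs were chosen with earlier results of these data known.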

Additional observations from a re-analysis of the deposited data

How the results depend on the processing

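The window and the score minimum set the counts. Over the gene spans alone, 1 gene (Il6) and 1 CEBPG peak were counted, and with 5 kb on either side 5 genes and 8 peaks. With 50 kb there were 27 CEBPG peaks and with 100 kb 40, at 9 genes in both cases. The 100 kb window also brought in 1 ATF4 peak at 1 gene, Csf1, and 1 CEBPG peak overlapping it. Scores of 50 or more left 6 CEBPG peaks, and scores of 100 or more left 2 peaks at 3 genes. Of 41 alternative values, 29 stayed within 1.5 times the reported count, but most of the 29 were ATF4 or shared-peak counts that began empty. Narrower windows, score minimums and stricter overlap can only remove peaks, so they could not have moved these counts. Among the CEBPG counts as many alternatives moved as stayed. Only the 50 kb and 100 kb windows could have added an ATF4 peak. No alternative other than the 100 kb window gave an ATF4 peak or a shared peak. Joining peaks under 100 bp apart (12 peaks), counting overlapping windows as 1 locus (6 loci) and leaving out peaks under 100 bp wide (7 genes, 11 peaks) were chosen after seeing the data. No replicate could be left out, and the unknown depth limits what an empty window means.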

Other observations

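Between 20 and 50 kb from the 10 genes lay 14 more CEBPG peaks, with scores of 41.53 to 392.52. Of these, 5 scored 100 or more, against 2 of the 13 peaks inside the windows, and 3 scored above the highest of those 13. These 3 were the peaks of 392.52 near Lif, 254.38 near Csf1 and 241.94 near Ccl2. None of the 14 overlapped an ATF4 peak. Peaks of 45.25 and 44.71 lay 32.8 kb and 33 kb before the start of Csf1.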
